A study of Mus musculus with 70 samples.

Results

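Collagens and laminins are the chains of the fibres and sheets of the extracellular matrix, and integrins are the receptors by which cells hold on to them. The genes described here were those of the RNA-seq table whose symbols name a collagen chain (Col, a number, a, a number), a laminin chain (Lama, Lamb or Lamc and a digit) or an integrin subunit (any Itga gene, or Itgb and a digit), with a mean above 1 CPM over the 18 RNA libraries. CPM is the count of reads of a transcript scaled to the total of its library, and each gene was read from its transcript with the highest mean CPM. Of 80 genes with such a symbol, 73 passed that minimum, among 14158 genes that passed it and 22835 genes in the table. They were 37 collagens, 11 laminins and 25 integrins. Just inside the minimum lay *Itgb7*, with a mean of 1.09 CPM, and *Col9a3*, with 1.13 CPM, and just outside lay *Col28a1*, with 0.862 CPM, and *Col6a6*, with 0.839 CPM. All 73 were tested; 66 of them were above 1 CPM in all 18 libraries and 7 were not.

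Collagen chains join in threes, and laminins are built from an alpha, a beta and a gamma chain. Type IV collagens and laminins form basement membranes, the thin sheets under epithelia and around vessels, while fibrillar collagens form the fibres of the tissue between them. In the anterior pituitary, cords of hormone cells lie next to fenestrated capillaries, with basement membranes between the cords and the vessels, and integrins on these cells bind laminin, collagen and other matrix proteins.

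The study examined how thyroid hormone (T3) and its receptor TRβ, encoded by *Thrb*, act on the mouse pituitary. RNA was sequenced from whole pituitaries of adult male C57BL/6J mice aged 2 to 4 months, with 3 pituitaries pooled in each library. Hypothyroid mice had been given methimazole (MMI, 0.05%), which blocks hormone synthesis, together with perchlorate (1%, as the potassium salt) for 4 to 5 weeks, and hyperthyroid mice had received the same with T3 at 0.5 µg/ml added for the final 1 week, so that every mouse was treated and none was euthyroid. Wild type mice gave 4 hypothyroid and 4 hyperthyroid libraries, and *Thrb*-KO mice, with a constitutive deletion of *Thrb* in all tissues, gave 5 hypothyroid and 5 hyperthyroid libraries. Library totals ran from 21453548 to 55273749 reads, with group medians of 34673225 in wild type hypothyroid, 37298252.5 in wild type hyperthyroid, 30555938 in *Thrb*-KO hypothyroid and 35928944 in *Thrb*-KO hyperthyroid. Binding sites of TRβ came from untreated mice in which the ligase BirA biotinylates a tagged receptor (HAB;BirA), set against BirA mice without the tag, with 3 libraries of each in pituitary and in cerebral cortex. T3-regulated open chromatin came from ATAC-seq of anterior pituitary nuclei, with 4 hypothyroid and 4 hyperthyroid libraries. Nuclei were sorted by a Sun1-GFP tag under a Cre at the b2 promoter of *Thrb*, so that those without that promoter's activity were left out. The mice used for TRβ binding and for ATAC-seq were also males aged 2 to 4 months. Their strain backgrounds were mixed, however, and not C57BL/6J alone.

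*Thrb*, the deleted gene, was read first. In wild type hypothyroid libraries it measured 239, 242, 249 and 297 CPM, and in wild type hyperthyroid libraries 124, 117, 72.4 and 103 CPM. Libraries labelled *Thrb*-KO held 272, 295, 278, 271 and 239 CPM when hypothyroid and 288, 301, 239, 245 and 228 CPM when hyperthyroid. Its level in libraries of that label thus lay within or near the wild type hypothyroid range, and CPM does not check the label, since the value covers the whole transcript and the deleted stretch cannot be read from it. Hyperthyroid libraries of the genotypes did not overlap, and those labelled *Thrb*-KO were higher by 1.33 on the log2 scale (SE 0.13, limma, BH-adjusted p = 1.01e-06). The response of the transcript to T3 differed as well. It fell by 1.32 on the log2 scale in wild type (SE 0.14, limma, BH-adjusted p = 1.03e-06) and measured −0.06 in libraries labelled *Thrb*-KO (SE 0.12, limma, BH-adjusted p = 1). The test of the difference between these responses passed (1.26 on the log2 scale, limma, BH-adjusted p = 0.000244). *Thra*, the gene of the other T3 receptor, measured −0.44 on the log2 scale with T3 in wild type, under the 1.5-fold limit.

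Libraries also stood apart in ways the groups do not name. Replicates 1 and 2 of every group, 8 libraries, held 2571 to 3420 CPM of *Lars2*, and replicates 3 to 5, 10 libraries, held 53.2 to 95.1 CPM. The labels name 2 library kits without saying which library had which, so the reason for these sets was not tested. Changes within each set are given for some of the members. Wild type hyperthyroid replicate 3 was the farthest from its group, in which the lowest correlation of log2(CPM + 1) between libraries was 0.927, and results that rest on it are given with and without it.

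With T3 the matrix genes of the wild type pituitary shifted in both directions. Type IV collagen chains *Col4a3* and *Col4a4* and the collagens *Col24a1*, *Col11a1* and *Col16a1* rose, while the laminin chain *Lama4*, the integrins *Itgav*, *Itgb8* and *Itgae* and 8 other collagens fell. That made 17 of 73 members called (5 higher, 12 lower), or 23.3%, where 10.3% of all 14158 genes were called (597 higher, 868 lower). Of the calls over all genes 40.8% were thus higher, against 47.6% with TMM factors, 49.1% with edgeR, 50.9% with DESeq2 and 47.9% without wild type hyperthyroid replicate 3. A gene was called at a BH-adjusted p under 0.05 in limma and a change of at least 1.5-fold. With other scalings of the libraries the split of the members moved, to 6 higher and 10 lower with TMM factors, 7 and 10 with edgeR, and 7 and 9 with DESeq2. Groups did not overlap for 17 members (5 higher, 12 lower), and for 18.2% of all genes. The median change of the members was −0.15 and that of all genes −0.04 on the log2 scale. By family, 5 of 37 collagens were called higher and 8 lower, 1 of 11 laminins was called lower, and 3 of 25 integrins were called lower. Without wild type hyperthyroid replicate 3 the count was 11. The 10.3% of all genes belongs to the fit with all libraries, so that it is no background for this count.

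In the libraries labelled *Thrb*-KO fewer members were called with T3, and the difference between the counts was not tested. There *Lama4*, *Col24a1*, *Col27a1*, *Itga4*, *Col6a3* and *Col17a1* fell and *Col16a1* rose, 7 of 73 members, where 1.34% of all genes were called. This count came to 3 without *Thrb*-KO hypothyroid replicate 5, and to 4 without *Thrb*-KO hypothyroid replicates 1, 2 or 4 or *Thrb*-KO hyperthyroid replicates 2, 3, 4 or 5, each left out alone. The 1.34% of all genes belongs to the fit with all libraries, so that it is no background for these smaller counts. The test of the difference between the responses, the interaction, called 9 members (4 higher, 5 lower), where 4.98% of all genes were called. Those were *Col24a1*, *Col4a3*, *Col4a4*, *Col11a1* and *Col27a1*, with a lower response in the libraries labelled *Thrb*-KO, and *Col5a3*, *Itgae*, *Itgav* and *Lama4*, with a higher one.

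Between genotypes, hypothyroid libraries differed in 6 members (2 higher, 4 lower in libraries labelled *Thrb*-KO), where 3.47% of all genes were called. *Col24a1* and *Col27a1* were higher, and *Col5a3*, *Col1a2* and the leukocyte integrins *Itgal* and *Itgam* were lower. Hyperthyroid libraries differed in 7 members (2 higher, 5 lower), where 5.54% of all genes were called. *Col4a3*, *Col4a4*, *Col24a1*, *Col11a1* and *Itgal* were lower, and *Itgae* and *Col27a1* were higher. The comparisons share libraries with each other, so that 22 different members account for the 46 calls, and each comparison's own values stand side by side. RNA was taken from whole tissue, in which fewer cells of a type and less RNA per cell cannot be told apart.

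**Figure D1:**
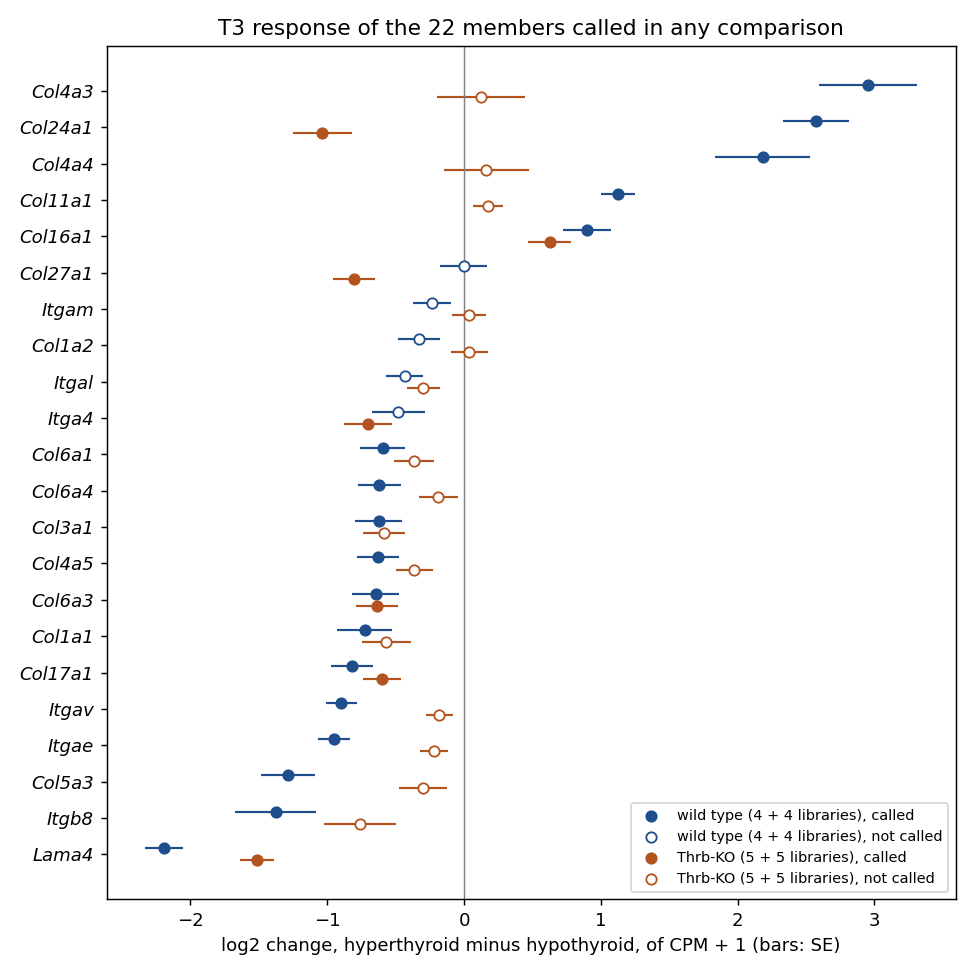
Log2 change of CPM + 1 with T3 (x axis, hyperthyroid minus hypothyroid) for the 22 members called in any comparison, in wild type (blue, 4 + 4 libraries) and in libraries labelled *Thrb*-KO (orange-brown, 5 + 5 libraries), with bars of 1 SE and filled points for called changes. *Col4a3* reaches 2.95 in wild type and 0.12 in libraries labelled *Thrb*-KO, *Col24a1* lies at 2.57 and −1.04, and *Lama4* at −2.19 and −1.51.

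*Col4a3* and *Col4a4* encode chains that assemble with the chain of *Col4a5* into a type IV network found in the basement membranes of the kidney glomerulus, the lung and the inner ear. *Col4a3* measured 12.2, 15.5, 4.68 and 5.73 CPM in the 4 wild type hypothyroid libraries and 114, 113, 35.0 and 62.3 CPM in the 4 hyperthyroid ones. When *Thrb*-KO was the label it measured 7.72, 7.95, 5.64, 4.77 and 4.57 CPM when hypothyroid and 7.69, 9.24, 6.67, 5.55 and 4.71 CPM when hyperthyroid. Every wild type hyperthyroid library lay above every other library, and the values of the libraries labelled *Thrb*-KO overlapped between treatments. *Col4a3* rose by 2.95 on the log2 scale with T3 in wild type (SE 0.36, 7.74-fold, limma, BH-adjusted p = 5.46e-06). The change in libraries labelled *Thrb*-KO was 0.12 (95% confidence interval −0.55 to 0.79, limma, BH-adjusted p = 1). The response differed between the genotypes by −2.83 (SE 0.48, limma, BH-adjusted p = 0.000873), with −2.86 in replicates 1 and 2 and −2.81 in replicates 3 to 5.

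Its neighbour *Col4a4* followed the same pattern at other levels. It measured 12.5, 16.2, 4.87 and 5.29 CPM in wild type hypothyroid libraries and 64.0, 69.1, 22.3 and 33.3 CPM in wild type hyperthyroid libraries. Those labelled *Thrb*-KO held 6.94, 6.74, 5.16, 4.70 and 3.74 CPM when hypothyroid and 7.25, 6.87, 5.91, 6.40 and 4.38 CPM when hyperthyroid. Again the wild type hyperthyroid libraries were all above the rest, and within each group replicates 1 and 2 were the higher ones for both chains. *Col4a4* rose by 2.18 on the log2 scale in wild type (SE 0.35, 4.54-fold, limma, BH-adjusted p = 0.000122), with 2.15 in replicates 1 and 2 and 2.22 in replicates 3 to 5. The interaction was −2.02 (SE 0.47, limma, BH-adjusted p = 0.0113). In hyperthyroid libraries the genotypes differed by −3.28 for *Col4a3* and by −2.62 for *Col4a4*. Hypothyroid genotypes differed by −0.45 and −0.60, not called, but in replicates 1 and 2 alone both chains were called lower in libraries labelled *Thrb*-KO, at −0.74 and −0.96.

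The other type IV chains did not follow. *Col4a5*, the third chain of that network, measured 18.4, 19.4, 14.0 and 15.9 CPM in wild type hypothyroid libraries and 12.7, 13.3, 6.69 and 10.8 CPM in hyperthyroid ones, without overlap. It fell by 0.63 on the log2 scale (SE 0.15, limma, BH-adjusted p = 0.00549), a call lost without wild type hyperthyroid replicate 3 (−0.43), without wild type hypothyroid replicate 2 (−0.56), with DESeq2 (−0.58) and in replicates 1 and 2 alone (−0.51). *Col4a1* and *Col4a2*, which form the network of most basement membranes, overlapped between the treatments. *Col4a1* averaged 122 CPM (SD 38.3, n = 4) in wild type hypothyroid and 83.6 CPM (SD 28.6, n = 4) in wild type hyperthyroid libraries, a change of −0.56 that was not called (limma, BH-adjusted p = 0.175). *Col4a2* measured −0.48 (limma, BH-adjusted p = 0.322) and *Col4a6* −0.20 (limma, BH-adjusted p = 0.577) in the same comparison.

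**Figure D2:**
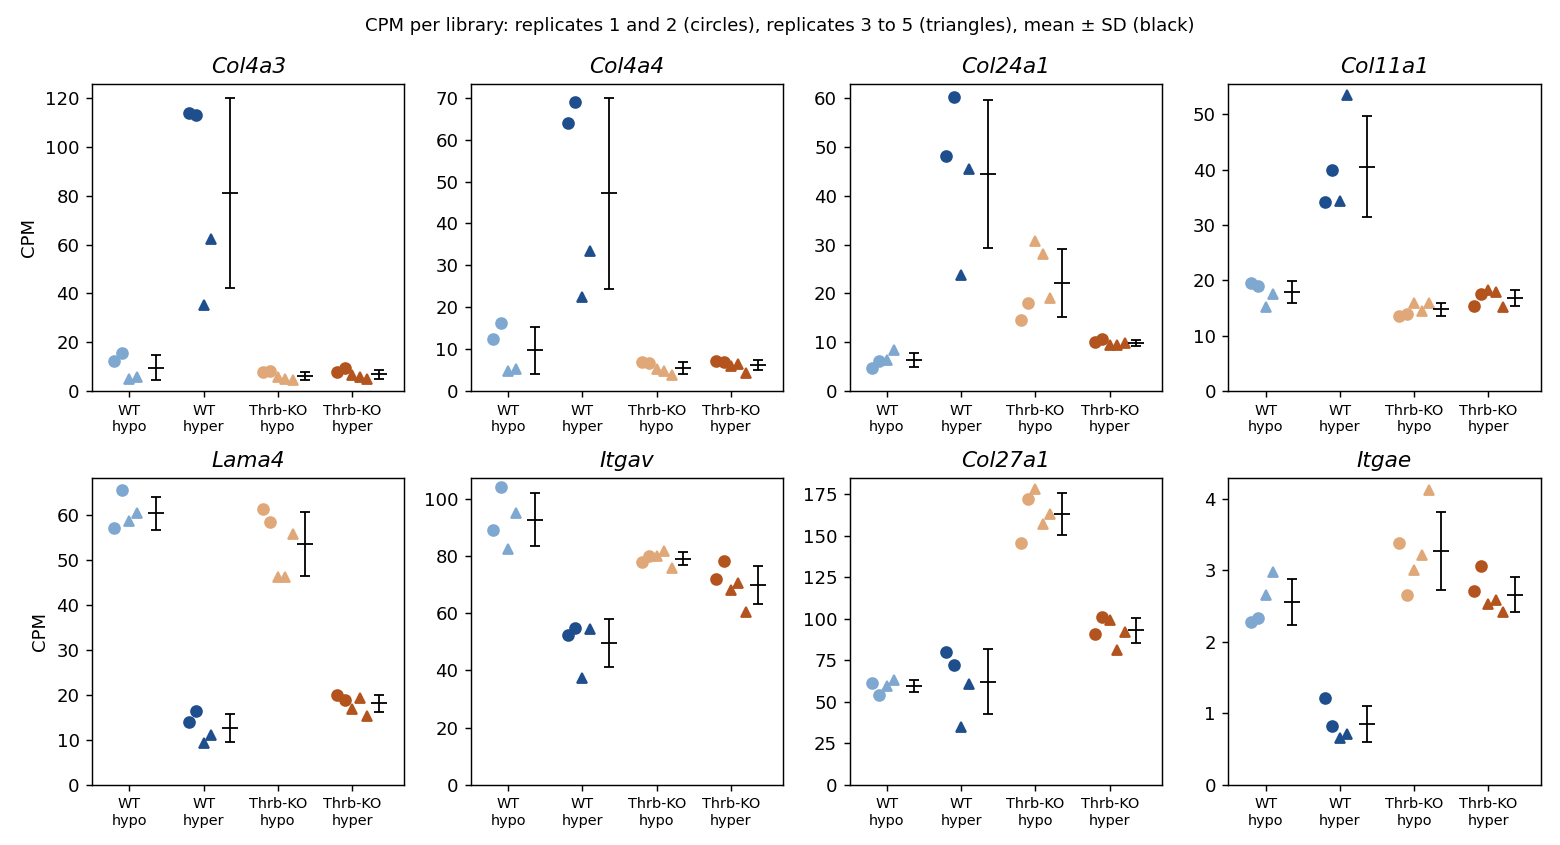
CPM (y axis) of 8 members in each library of the 4 groups, with replicates 1 and 2 as circles, replicates 3 to 5 as triangles, and the mean ± SD in black. *Col4a3* and *Col4a4* are high in the 4 wild type hyperthyroid libraries only, *Col24a1* changes in opposite directions in the genotypes, and *Lama4* is low in both hyperthyroid groups.

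*Col24a1* encodes a minor fibrillar collagen known from developing bone and cornea. It measured 4.68, 6.21, 6.31 and 8.30 CPM in wild type hypothyroid libraries and 48.2, 60.2, 23.8 and 45.6 CPM in wild type hyperthyroid libraries. With the label *Thrb*-KO the hypothyroid values, 14.5, 18.1, 30.8, 28.0 and 19.0 CPM, were the higher ones, and the hyperthyroid values were 10.1, 10.7, 9.39, 9.33 and 9.79 CPM. No 2 groups of the same genotype overlapped, nor did any 2 of the same treatment, and the directions were opposite. With T3 it rose by 2.57 on the log2 scale in wild type (SE 0.24, limma, BH-adjusted p = 2.35e-07) and fell by 1.04 in libraries labelled *Thrb*-KO (SE 0.22, limma, BH-adjusted p = 0.00983). The interaction was −3.61 (SE 0.32, limma, BH-adjusted p = 6.92e-07), with −3.70 in replicates 1 and 2 and −3.37 in replicates 3 to 5. Against wild type, libraries labelled *Thrb*-KO were higher by 1.61 when hypothyroid and lower, at −2.00, when hyperthyroid. The response in wild type was 3.10 in replicates 1 and 2 and 2.04 in replicates 3 to 5, and that in libraries labelled *Thrb*-KO −0.60 and −1.33.

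*Col27a1*, the fibrillar collagen most like *Col24a1* in chain structure, had another pattern. Its wild type values were 61.0, 54.3, 59.6 and 62.9 CPM when hypothyroid and 79.8, 72.0, 35.0 and 60.9 CPM when hyperthyroid, which overlapped. Those labelled *Thrb*-KO held 145, 172, 178, 157 and 163 CPM when hypothyroid and 91.0, 101, 99.1, 81.3 and 91.9 CPM when hyperthyroid. All of these lay above every wild type library, and the treatments did not overlap within the genotype. The change with T3 was −0.00 in wild type (95% confidence interval −0.36 to 0.36) and fell by 0.81 on the log2 scale in libraries labelled *Thrb*-KO (SE 0.15, limma, BH-adjusted p = 0.00429). Hypothyroid libraries labelled *Thrb*-KO were higher than wild type by 1.44 (SE 0.16, 2.71-fold, limma, BH-adjusted p = 8.22e-06). Between hyperthyroid libraries the difference was 0.64 (limma, BH-adjusted p = 0.0122), and 0.39 without wild type hyperthyroid replicate 3, 0.57 with TMM factors, 0.53 with edgeR, 0.52 with DESeq2 and 0.33 in replicates 1 and 2, each under the 1.5-fold limit. The interaction, −0.80 (limma, BH-adjusted p = 0.0433), was lost in 15 of the 18 fits that left out a library, with adjusted p up to 0.0963, and measured −1.11 in replicates 1 and 2 and −0.47 in replicates 3 to 5.

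*Col11a1*, a chain of the collagen fibrils of cartilage, rose with T3 in wild type only. It measured 19.6, 18.9, 15.1 and 17.5 CPM in wild type hypothyroid and 34.2, 40.0, 34.3 and 53.5 CPM in wild type hyperthyroid libraries. Libraries labelled *Thrb*-KO ranged from 13.5 to 16.0 CPM when hypothyroid and from 15.1 to 18.2 CPM when hyperthyroid, overlapping each other. The rise in wild type was 1.13 on the log2 scale (SE 0.12, 2.18-fold, limma, BH-adjusted p = 1.82e-06), and the interaction was −0.95 (SE 0.17, limma, BH-adjusted p = 0.0012). *Col16a1*, a collagen that attaches to fibrils, was called higher in both genotypes. It rose by 0.90 in wild type (SE 0.17, limma, BH-adjusted p = 0.000849), where 1 hypothyroid library, at 12.5 CPM, lay just above the lowest hyperthyroid library, at 12.3 CPM. It also rose, by 0.63, in libraries labelled *Thrb*-KO (SE 0.16, limma, BH-adjusted p = 0.0391), without overlap, but the call was lost in 8 of the 18 fits that left out a library (adjusted p up to 0.14). The responses of *Col16a1* differed by −0.27, which was not called (limma, BH-adjusted p = 0.745).

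*Col1a1*, a chain of type I collagen, measured 46.5, 40.4, 30.0 and 31.3 CPM in wild type hypothyroid libraries and 26.3, 25.8, 14.7 and 21.9 CPM in hyperthyroid ones, without overlap. *Col1a1* fell by 0.73 on the log2 scale in wild type (SE 0.20, limma, BH-adjusted p = 0.0135). *Col3a1*, of type III collagen, fell by 0.62, and the type VI chains *Col6a1*, *Col6a3* and *Col6a4*, which form beaded microfilaments, fell by 0.60, 0.65 and 0.62. These 5 calls rested on few libraries. Without wild type hyperthyroid replicate 3 the changes were −0.55 for *Col1a1*, −0.44 for *Col3a1*, −0.41 for *Col6a1*, −0.47 for *Col6a3* and −0.46 for *Col6a4*, all under the 1.5-fold limit. Without wild type hypothyroid replicate 1 none of the 5 was called either, with changes of −0.61, −0.53, −0.50, −0.55 and −0.56 in the same order, and without wild type hypothyroid replicate 2 *Col6a3* (−0.58) and *Col6a4* (−0.55) were not. *Col3a1* and *Col6a1* were also not called with TMM factors (−0.58 and −0.55), with edgeR or with DESeq2. Among libraries labelled *Thrb*-KO, *Col1a1* measured −0.57 and *Col3a1* −0.58, neither called, and *Col6a3* fell by 0.64 (limma, BH-adjusted p = 0.0293), a call lost in 7 of the 18 fits without a library. No interaction was called for any of these chains.

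*Col1a2*, which encodes the partner chain of *Col1a1*, differed by genotype instead. It measured 192, 174, 152 and 143 CPM in wild type hypothyroid libraries and 99.96, 104, 115, 104 and 103 CPM in hypothyroid libraries labelled *Thrb*-KO, without overlap. The difference was −0.64 on the log2 scale (SE 0.14, limma, BH-adjusted p = 0.00844), with −0.83 in replicates 1 and 2 and −0.46 in replicates 3 to 5, and −0.57 without wild type hypothyroid replicate 1, under the 1.5-fold limit. Its change with T3 in wild type, −0.33, was not called (limma, BH-adjusted p = 0.157).

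*Col5a3* encodes a chain of type V collagen, which lies inside type I fibrils. It measured 5.59, 4.90, 11.4 and 10.5 CPM in wild type hypothyroid libraries and 2.29, 2.42, 2.35 and 3.17 CPM in hyperthyroid ones. Libraries labelled *Thrb*-KO held 4.34, 5.37, 4.50, 3.32 and 3.58 CPM when hypothyroid and 2.91, 2.67, 3.53, 3.41 and 3.54 CPM when hyperthyroid, with overlap. The 2 wild type hypothyroid libraries of replicates 3 and 4 stood above all other libraries. *Col5a3* fell by 1.28 on the log2 scale in wild type (SE 0.20, limma, BH-adjusted p = 8.58e-05), with −0.89 in replicates 1 and 2 and −1.67 in replicates 3 to 5. Against wild type, hypothyroid libraries labelled *Thrb*-KO measured −0.74 (limma, BH-adjusted p = 0.0189), with −0.10 in replicates 1 and 2 and −1.32 in replicates 3 to 5, so that this difference did not hold within replicates 1 and 2. It was not called without wild type hypothyroid replicate 3 (−0.56), wild type hypothyroid replicate 4 (−0.60) or *Thrb*-KO hypothyroid replicate 4 (−0.67). The interaction, 0.98 (limma, BH-adjusted p = 0.0312), was 0.27 in replicates 1 and 2 and 1.58 in replicates 3 to 5, and was lost in 9 of the 18 fits without a library.

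*Col17a1* encodes a transmembrane collagen of hemidesmosomes, the anchors of epithelial cells to the basement membrane. Its wild type values were 3.45, 3.09, 4.48 and 4.13 CPM when hypothyroid and 2.11, 1.54, 1.87 and 1.33 CPM when hyperthyroid. It fell by 0.82 on the log2 scale in wild type (SE 0.15, limma, BH-adjusted p = 0.000661). In libraries labelled *Thrb*-KO it fell by 0.60 (SE 0.14, limma, BH-adjusted p = 0.021), a call lost in 6 of the 18 fits without a library. Treatments did not overlap in either genotype, and the interaction was not called (0.22, limma, BH-adjusted p = 0.795). The 56 members not called in the wild type response measured between −0.84 (*Itga1*) and 0.54 (*Col9a2*) on the log2 scale. Among these *Col9a2*, whose groups did not overlap, was called higher with TMM factors (0.66), edgeR (1.04) and DESeq2 (1.05), and *Itgb7* with edgeR (0.62) and DESeq2 (0.63).

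Of the laminins, *Lama4*, the alpha chain best known from the basement membranes of vessels, had the change with the smallest adjusted p among the members. It averaged 60.3 CPM (SD 3.68, n = 4) in wild type hypothyroid libraries and measured 13.9, 16.4, 9.37 and 11.0 CPM in hyperthyroid ones. Those labelled *Thrb*-KO held 61.3, 58.3, 46.1, 46.1 and 55.7 CPM when hypothyroid and 20.1, 18.8, 16.8, 19.4 and 15.4 CPM when hyperthyroid. Hypothyroid and hyperthyroid libraries were far apart in both genotypes, while hypothyroid libraries of the genotypes overlapped. *Lama4* fell by 2.19 on the log2 scale with T3 in wild type (SE 0.14, 4.57-fold, limma, BH-adjusted p = 1.28e-09) and by 1.51 in libraries labelled *Thrb*-KO (SE 0.12, 2.85-fold, limma, BH-adjusted p = 3.84e-07). The responses differed by 0.68 (SE 0.19, limma, BH-adjusted p = 0.0337), with 0.37 in replicates 1 and 2 and 0.97 in replicates 3 to 5. That interaction was lost in 10 of the 18 fits that left out a library, with adjusted p up to 0.0701, whereas both responses were called in all 18.

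The other 10 laminins were not called in any comparison with all libraries. *Lamc1*, the gamma chain of most laminins, averaged 141 CPM (SD 26.7, n = 4) in wild type hypothyroid and 130 CPM (SD 35.0, n = 4) in wild type hyperthyroid libraries, a change of −0.13 (SE 0.17). Its difference between hyperthyroid genotypes, 0.40, was called in replicates 3 to 5 alone (0.62). *Lama5* measured 0.11 (SE 0.18), *Lamb2* 0.05 (SE 0.13) and *Lama2* −0.08 (SE 0.33) on the log2 scale. Between genotypes limma called 0 of 11 laminins in hypothyroid and 0 of 11 in hyperthyroid libraries, edgeR and DESeq2 called 0 in each as well, and 1 and 2 of them had an unadjusted p under 0.05.

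Integrins are pairs of an alpha and a beta subunit, and *Itgav* and *Itgb8* encode subunits that pair with each other in a receptor known to bind latent TGF-beta. *Itgav* measured 89.1, 104, 82.4 and 95.0 CPM in wild type hypothyroid libraries and 52.4, 54.8, 37.2 and 54.4 CPM in hyperthyroid ones. Libraries labelled *Thrb*-KO held 77.9, 80.0, 79.9, 81.6 and 75.9 CPM when hypothyroid and 72.0, 78.2, 68.2, 70.7 and 60.2 CPM when hyperthyroid, with overlap. The wild type hyperthyroid libraries were below all others. *Itgav* fell by 0.90 on the log2 scale in wild type (SE 0.11, limma, BH-adjusted p = 7.61e-06), and its response differed between genotypes by 0.72 (SE 0.15, limma, BH-adjusted p = 0.00536), with 0.76 in replicates 1 and 2 and 0.71 in replicates 3 to 5. Without wild type hyperthyroid replicate 3, the lowest library, the fall in wild type was −0.77 and still called.

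*Itgb8* measured 34.7, 40.4, 16.6 and 22.2 CPM in wild type hypothyroid libraries and 14.3, 13.7, 6.69 and 6.67 CPM in hyperthyroid ones. Libraries labelled *Thrb*-KO held 23.1, 21.8, 12.0, 13.7 and 13.6 CPM when hypothyroid and 11.9, 11.3, 7.55, 9.30 and 6.85 CPM when hyperthyroid. Replicates 1 and 2 were the higher ones in every group, and treatments did not overlap in either genotype. *Itgb8* fell by 1.38 on the log2 scale in wild type (SE 0.29, limma, BH-adjusted p = 0.00198). In libraries labelled *Thrb*-KO its change of −0.76 was not called (limma, BH-adjusted p = 0.215), but was called with the replicate number as a block (limma, BH-adjusted p = 0.000163). With that block its interaction, 0.62, and its difference between genotypes in hypothyroid libraries, −0.61, were called as well (limma, BH-adjusted p = 0.0116 and 0.00107). *Itga1*, the alpha subunit of a collagen and laminin receptor, behaved alike in this respect. It averaged 12.1 CPM (SD 5.08, n = 4) and 6.74 CPM (SD 4.11, n = 4) in wild type hypothyroid and hyperthyroid libraries, a change of −0.84 not called without the block (limma, BH-adjusted p = 0.168) and called with it (limma, BH-adjusted p = 0.000151). Its interaction of 0.73 was called with the block only (limma, BH-adjusted p = 0.0136).

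*Itgae* encodes the alpha subunit of a lymphocyte receptor for E-cadherin. It was low throughout, at 2.28, 2.33, 2.66 and 2.97 CPM in wild type hypothyroid and 1.21, 0.824, 0.649 and 0.707 CPM in wild type hyperthyroid libraries. In libraries labelled *Thrb*-KO it ranged from 2.65 to 4.12 CPM when hypothyroid and from 2.42 to 3.06 CPM when hyperthyroid. Wild type hyperthyroid libraries lay below all others. *Itgae* fell by 0.95 on the log2 scale in wild type (SE 0.12, limma, BH-adjusted p = 5.5e-06), and its interaction was 0.73 (SE 0.15, limma, BH-adjusted p = 0.0057). At such levels the pseudocount of 1 shrinks changes: with a pseudocount of 0.1 the response was −1.52 and the interaction 1.24, and with edgeR −1.52 and 1.24. With the second transcript of the gene the interaction was 0.57 and not called (limma, BH-adjusted p = 0.111).

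*Itga4*, the alpha subunit of a receptor for fibronectin and VCAM-1, fell by 0.70 on the log2 scale in libraries labelled *Thrb*-KO (SE 0.17, limma, BH-adjusted p = 0.0369), from 20.2 to 24.5 CPM down to 10.6 to 17.7 CPM. That call was lost in 10 of the 18 fits without a library (adjusted p up to 0.118), and the change in wild type, −0.48, was not called. *Itgb1*, the beta subunit shared by the collagen and laminin receptors, averaged 378 CPM (SD 37.4, n = 4) in wild type hypothyroid and 283 CPM (SD 30.5, n = 4) in wild type hyperthyroid libraries. Its change of −0.42 had a small adjusted p (limma, BH-adjusted p = 0.00282) but lay under the 1.5-fold limit, as did its difference between genotypes in hypothyroid libraries, −0.36 (limma, BH-adjusted p = 0.0155). *Itga6*, of the laminin receptors of epithelia, measured −0.11 with T3 in wild type, and *Itga3* 0.22. Between hyperthyroid genotypes *Itga6* measured −0.42, not called, and −0.67, called lower, without wild type hyperthyroid replicate 3 (limma, BH-adjusted p = 0.0261).

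*Itgal* and *Itgam*, the alpha subunits of leukocyte receptors that share the beta subunit of *Itgb2*, were lower in hypothyroid libraries labelled *Thrb*-KO. *Itgal* measured 9.53, 8.72, 9.50 and 10.8 CPM in wild type and 5.37, 5.60, 4.79, 4.60 and 6.91 CPM in libraries labelled *Thrb*-KO, without overlap. The difference was −0.73 on the log2 scale (SE 0.13, limma, BH-adjusted p = 0.00101) in hypothyroid and −0.59 (SE 0.13, limma, BH-adjusted p = 0.00372) in hyperthyroid libraries. The latter lay near the 1.5-fold limit. It was lost in 6 of the 18 fits without a library, with the library set as a block (−0.58) and in replicates 3 to 5 alone (−0.46, limma, BH-adjusted p = 0.0861). *Itgam* measured 4.02, 3.88, 6.06 and 4.68 CPM against 3.18, 2.78, 2.73, 2.23 and 2.59 CPM, a difference of −0.60 (SE 0.13, limma, BH-adjusted p = 0.006). Within the sets it was −0.32 in replicates 1 and 2 and −0.85 in replicates 3 to 5, and it was not called without wild type hypothyroid replicate 3 (−0.49) or *Thrb*-KO hypothyroid replicate 4 (−0.55). *Itgb2* itself measured −0.41 and was not called (limma, BH-adjusted p = 0.0601).

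Markers of immune cells moved with these integrins. Of 10 listed genes (*Ptprc*, *Csf1r*, *Cd68*, *Aif1*, *Emr1*, which is listed under both of its names, *C1qa*, *C1qb*, *Cd3e* and *Cd79a*), 7 were tested, and 4 of them, *C1qa*, *C1qb*, *Csf1r* and *Emr1*, were lower in hypothyroid libraries labelled *Thrb*-KO, at −0.84, −0.83, −0.77 and −0.74 on the log2 scale. *Csf1r*, their most abundant gene, averaged 29.8 CPM over all libraries. The summed level of the list was 104 to 122 CPM in wild type hypothyroid libraries and 59.3 to 72.1 CPM in hypothyroid libraries labelled *Thrb*-KO, without overlap. By edgeR and by DESeq2 6 of 7 were called there. Of all genes limma called 3.47%, edgeR 4.82% and DESeq2 5.25% in that comparison. In hyperthyroid libraries limma called 1 of 7, *C1qa*, lower and edgeR and DESeq2 5 each, where they called 5.54%, 7.14% and 7.95% of all genes. *C1qa* measured −0.24 in replicates 1 and 2 and −0.99 in replicates 3 to 5 there, and −0.50 and −1.11 in hypothyroid libraries. In hyperthyroid libraries the sums, 75.4 to 138 CPM in wild type and 61.5 to 80.9 CPM in libraries labelled *Thrb*-KO, overlapped across the sets but not within them: they were 75.4 and 92.8 CPM against 72.9 and 61.5 CPM in replicates 1 and 2, and 97.4 and 138 CPM against 80.9, 71.4 and 75.5 CPM in replicates 3 to 5. With T3 none of the 7 was called by limma, edgeR or DESeq2 in wild type, where 1 had an unadjusted p under 0.05. The part of these cells in the values of *Itgal* and *Itgam* was not tested.

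Markers of vessel cells and fibroblasts, which make much of the matrix, gave no calls with T3 in wild type. In limma, edgeR and DESeq2 alike 0 of 7 endothelial, 0 of 7 mural and 0 of 4 tested fibroblast markers were called, and 1, 2 and 1 of them had an unadjusted p under 0.05. None of these fits held a block for replicate number, so that differences between the library sets stayed in their spread. A count of 0 calls thus does not show that these markers were unchanged, and no values with that block are given for them. Summed endothelial markers, of which *Plvap* was the most abundant, reached 203 to 307 CPM in wild type hypothyroid and 155 to 284 CPM in wild type hyperthyroid libraries. Summed mural markers, led by *Rgs5*, reached 93.5 to 259 CPM and 92.2 to 245 CPM, and fibroblast markers, led by *Dcn*, 124 to 137 CPM and 132 to 188 CPM. Across all wild type libraries the treatments overlapped in each of the 3 lists, but mural and endothelial sums were higher in replicates 1 and 2 than in replicates 3 and 4. Within each set the wild type endothelial sums did not overlap, at 307 and 300.5 CPM against 261 and 284 CPM in replicates 1 and 2 and at 203 and 214 CPM against 155 and 194 CPM in replicates 3 and 4, with the hyperthyroid libraries lower. Mural sums were lower in the hyperthyroid library for each replicate number, in both genotypes, and the part of vessel cells in the values of *Lama4* was not tested. Hormone genes also moved: *Tshb* fell by 4.95 and *Cga* by 2.55 on the log2 scale with T3 in wild type, and *Prl* rose by 1.70 and *Gh* by 1.03, while their 8-gene list had 0 calls in the interaction by limma, edgeR and DESeq2 and 0 genes at an unadjusted p under 0.05. *Gh*, the most abundant gene of the tissue's markers, averaged 82709 CPM. In libraries labelled *Thrb*-KO *Tshb* fell by 4.83 and *Cga* by 2.11, and *Prl* rose by 1.63. There *Pou1f1* was higher by 0.63 than in wild type when hyperthyroid, with 0.41 in replicates 1 and 2 and 0.78 in replicates 3 to 5. It was not called by edgeR (0.56), while DESeq2 called 1 gene of the 8-gene list in that comparison.

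Of the remaining cell types, folliculostellate and stem cell markers had 1 of 6 called with T3 in wild type, *Vim*, at −0.59 (limma, BH-adjusted p = 0.04999; 0 of 6 by edgeR and by DESeq2), and 1 lower between hyperthyroid genotypes, *Aldh1a2*, at −0.59. *Pcsk2*, 1 of 2 tested intermediate lobe markers, was lower in hypothyroid libraries labelled *Thrb*-KO, at −0.68, with summed levels of 379 to 534 CPM in wild type and 246 to 383 CPM in libraries labelled *Thrb*-KO. Pituicyte and glia markers had 0 of 6 called with T3 in wild type (1 by edgeR, 1 by DESeq2, and 2 at an unadjusted p under 0.05), and erythrocyte markers 0 of 5 (0 by edgeR, by DESeq2 and at an unadjusted p under 0.05). Summed erythrocyte markers nonetheless did not overlap in wild type, at 53.1 to 98.4 CPM in hypothyroid and 120.02 to 136 CPM in hyperthyroid libraries, nor did the intermediate lobe sums, which were 276 to 357 CPM in the hyperthyroid ones. Of 8 cartilage and bone markers only *Runx2* was tested, and it was not called in any comparison by limma, edgeR or DESeq2. Of 5 skeletal muscle markers 0 passed the minimum, and *Ckm*, the most abundant, averaged 0.661 CPM. The most abundant markers of the other lists were *Rgs5* (87.7 CPM), *Plvap* (85.3 CPM), *Dcn* (111 CPM), *Cyp2f2* (167 CPM, folliculostellate), *Mbp* (36.7 CPM, glia), *Hba-a1* (34.8 CPM, erythrocyte), *Pcsk2* (281 CPM) and *Runx2* (2.27 CPM).

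Other genes of the matrix were read from lists, beside which stands the 10.3% of all genes that were called with T3 in wild type. Among other basement membrane genes 4 of 17 were called with T3 in wild type: *Sparc*, a collagen-binding protein, fell by 0.89 and *Smoc1* by 0.83, while *Pxdn*, a peroxidase that cross-links type IV collagen, rose by 0.98 and *Ntn4* by 0.64 on the log2 scale. Of the other interstitial matrix genes 4 of 23 were lower, *Thbs3* (−0.97), *Tnc* (−0.75), *Ecm1* (−0.74) and *Vcan* (−0.73), and *Tnc*, the gene of tenascin C, also fell by 0.96 in libraries labelled *Thrb*-KO. Genes that process collagen had 2 higher and 4 lower of 25. *Pcolce2*, an enhancer of procollagen cleavage, rose by 1.02 and *Loxl1*, a cross-linking oxidase, by 0.87, while *Glt25d2*, a collagen galactosyltransferase, fell by 1.22, *Plod3*, a lysyl hydroxylase, by 0.80, *Leprel1*, a prolyl hydroxylase, by 0.76 and *P4ha2*, of another prolyl hydroxylase, by 0.59.

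Matrix proteases and their inhibitors had 3 higher and 1 lower of 17 in the same comparison. *Reck*, a membrane inhibitor of matrix metalloproteinases, rose by 1.46 and *Mmp15*, a membrane metalloproteinase, by 1.13 on the log2 scale, and *Adamts5* rose by 0.62, while *Mmp19* fell by 0.63. Both *Reck* (−1.01) and *Mmp15* (−0.82) were called in the interaction. Other matrix receptors had 3 higher and 1 lower of 19: *Sdc1*, a syndecan, rose by 1.34, *Lair1*, a collagen receptor of leukocytes, by 0.62 and *Sdc4* by 0.60, and *Cd44*, the hyaluronan receptor, fell by 1.65. *Cd44* was also lower, at −1.45, in hypothyroid libraries labelled *Thrb*-KO. Of the genes that link integrins to the cytoskeleton, 1 of 24 was higher, *Lims2* (0.67), and 1 lower, *Ptk2b* (−0.80).

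For T3 in libraries labelled *Thrb*-KO, where 1.34% of all genes were called, limma called 0 of 17 other basement membrane genes, 0 of 17 proteases and inhibitors, 0 of 24 integrin adaptors and 0 of 19 other receptors, where 3, 4, 2 and 2 genes had an unadjusted p under 0.05. Both edgeR and DESeq2 called 0 in these lists apart from 1 adaptor each. Collagen processing had 1 call there, *Pcolce2*, which rose by 0.64. Other called genes of these lists in the interaction were *Cd44* (1.39), *Thbs3* (0.82), *Glt25d2* (0.76), *Smoc1* (0.70), *Plod3* (0.65), *Ptk2b* (0.60), *Loxl1* (−0.61) and *Sdc1* (−0.90), of which *Ptk2b* was not called by edgeR (0.57) or by DESeq2. In replicates 1 and 2 the interactions of *Glt25d2* (0.47), *Ptk2b* (0.48), *Loxl1* (−0.54), *Smoc1* (0.55) and *Plod3* (0.56) lay under the 1.5-fold limit. The most abundant genes of the lists, *Pxdn* (132 CPM), *P4hb* (323 CPM), *Timp3* (175 CPM), *Tns1* (297 CPM), *Sdc2* (192 CPM) and *Dcn*, were not called with T3 in libraries labelled *Thrb*-KO.

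The genotypes differed in further list genes. In hypothyroid libraries *Pxdn* was higher (0.71), and *Ecm1* (−0.80), *Leprel1* (−0.70), *Smoc1* (−0.70), *Mfap2* (−0.64) and *Sparc* (−0.64) were lower, in libraries labelled *Thrb*-KO. In hyperthyroid libraries *Vtn* (0.85), *Thbs3* (0.72) and *Vcan* (0.61, not called by edgeR or by DESeq2) were higher, and *Reck* (−0.96), *Mmp15* (−0.92), *Mfap2* (−0.85), *Sdc1* (−0.82) and *Lair1* (−0.69) were lower. Between the genotypes *Adamts2*, the protease that trims fibrillar procollagens, was lower in hypothyroid (−0.63) and in hyperthyroid libraries (−1.31) labelled *Thrb*-KO.

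Peaks were then placed at the members' loci, on build mm9. In the list of untreated pituitary, 29 of 73 members had a TRβ peak in the gene or within 20 kb of it, 39.7%, against 40.3% of 13849 genes with coordinates. In the list of T3-regulated ATAC peaks, which gives no direction, 6 members had a peak, 8.22% against 7.74% of genes, and in the list of cerebral cortex 26 members had a TRβ peak, 35.6% against 34.0%. At this distance the shares of the members were thus close to those of all genes. The window takes in the gene body, so that a longer gene has more room for a peak, and gene length was not matched. *Col4a3* and *Col4a4* share their peaks but count as separate members. Members with an ATAC peak were *Col4a3*, *Col4a4*, *Col16a1*, *Col4a1*, *Lama2* and *Lamc1*. TRβ libraries were pooled by the authors before peaks were called, so that single TRβ peaks carry no error between replicates.

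*Col4a3* and *Col4a4* lie head to head on chromosome 1, *Col4a3* on the + strand from 82583496 to 82718634 and *Col4a4* on the − strand from 82447298 to 82583424, with 71 bases between their starts. A TRβ peak of untreated pituitary lay at chr1:82586801-82587150, in an intron of *Col4a3*, its centre 3.48 kb from that gene's start and 3.55 kb upstream of *Col4a4*. It held 61 reads from HAB;BirA mice and 2 from BirA mice, a fold of 25.5 in the authors' scaling. A T3-regulated ATAC peak at chr1:82586835-82587135 overlapped it, and another at chr1:82583239-82583866 spanned the starts of both genes. No cortex peak lay within 20 kb of either gene. *Col24a1* and *Col11a1*, which like this pair had a called rise in wild type and a called interaction, had no ATAC peak within 20 kb. The peak lists come from other mice, and which gene a peak acts on was not tested.

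**Figure D3:**
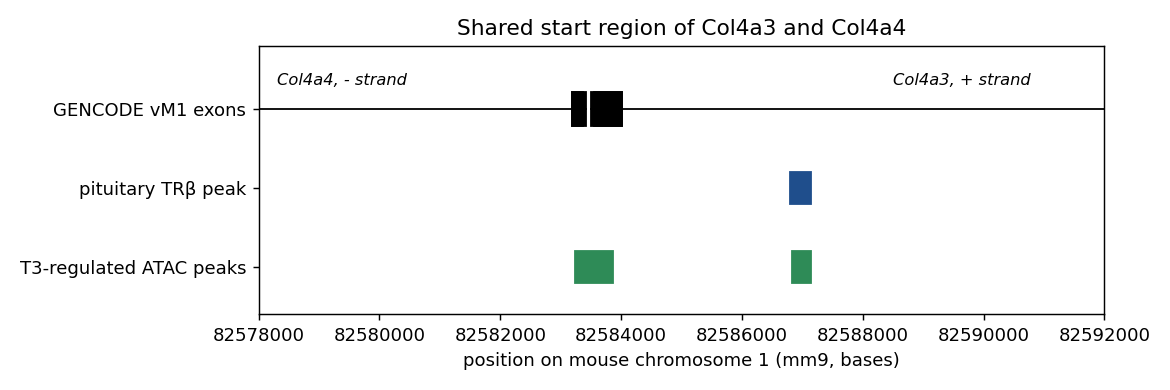
Map of the start region of *Col4a3* and *Col4a4* on mouse chromosome 1 (mm9, x axis in bases), with annotated exons in black, the TRβ peak of untreated pituitary in blue and T3-regulated ATAC peaks in green. The TRβ peak from 82586801 to 82587150 and an ATAC peak from 82586835 to 82587135 coincide, and the other ATAC peak lies over both starts.

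*Col16a1*, called higher with T3 in both genotypes, had a TRβ peak in an intron at chr4:129756001-129756450, with 54 reads against 8, that overlapped an ATAC peak at chr4:129756025-129756373. A further TRβ peak, with 40 reads against 5, lay 3.43 kb upstream of its start. *Lamc1*, not called in any comparison, had the same arrangement: an intronic TRβ peak at chr1:155139301-155139900, with 60 reads against 7, over an ATAC peak at chr1:155139423-155139636. *Col24a1* had a short TRβ peak at chr3:144955251-144955400, centred 111 bases upstream of its start, with 14 reads against 2, where the median peak of the list held 18 reads, and no ATAC peak. *Col27a1* had 5 TRβ peaks of pituitary, of 11 to 19 reads, 1 TRβ peak of cortex, of 10 reads, and no ATAC peak within 20 kb. *Lama4*, which fell in both genotypes, had no TRβ peak of pituitary or cortex and no ATAC peak within 20 kb.

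Sequence is shown for the stretches that tie a peak to a member described above, read 5′ to 3′ on the + strand of mm9. Thyroid hormone receptors are known to bind direct repeats of AGGTCA with a spacer of 4 bases (the DR4 motif), which were sought on both strands with up to 2 mismatches outside the spacer. The stretch of *Col4a3* is chr1:82586836-82587135, shared by its TRβ and ATAC peaks, and holds 1 such match, on the − strand from 82586967 to 82586982, in capitals. That of *Lamc1* is chr1:155139423-155139636, with 1 match on the − strand from 155139439 to 155139454, in capitals, which is not wholly inside the window of 300 bases at the centre of its TRβ peak, where the closest stretch had 4 mismatches. That of *Col24a1* is the whole peak, chr3:144955251-144955400, without such a match but with 1 exact AGGTCA, in capitals. Counted on both strands, the stretch of *Lamc1* holds 2 exact AGGTCA, of which 1 lies in its match, and that of *Col4a3* holds 0.
*Col4a3*: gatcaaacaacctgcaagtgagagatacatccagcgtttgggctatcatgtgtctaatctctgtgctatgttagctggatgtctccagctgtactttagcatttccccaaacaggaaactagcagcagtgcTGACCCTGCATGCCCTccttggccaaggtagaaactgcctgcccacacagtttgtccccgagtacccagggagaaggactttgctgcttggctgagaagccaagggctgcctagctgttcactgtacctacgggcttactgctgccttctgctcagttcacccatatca
*Lamc1*: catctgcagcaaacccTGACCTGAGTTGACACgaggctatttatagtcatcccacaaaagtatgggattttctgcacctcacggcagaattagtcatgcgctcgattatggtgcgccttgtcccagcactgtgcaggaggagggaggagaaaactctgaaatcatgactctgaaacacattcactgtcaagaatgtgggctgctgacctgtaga
*Col24a1*: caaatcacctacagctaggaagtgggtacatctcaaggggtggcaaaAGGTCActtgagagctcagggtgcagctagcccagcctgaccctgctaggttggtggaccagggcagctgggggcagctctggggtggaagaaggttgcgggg

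Such matches are frequent. In windows of 300 bases at the centres of peaks, 20.1% of the 8051 pituitary TRβ peaks, 30.2% of the 1776 ATAC peaks and 6.35% of the 5164 cortex TRβ peaks held a match with up to 2 mismatches, and in windows of 214 bases 17.8% of pituitary TRβ peaks and 25.7% of ATAC peaks did. An exact AGGTCA on either strand stood in 22.2% of pituitary TRβ peaks in windows of 150 bases. Of the stretch shared by both peaks of *Col16a1*, the central 300 bases, from 129756050 to 129756349, held 0 matches, while the window of 300 bases at the centre of its TRβ peak held a match with 2 mismatches, as did that of *Col24a1*, which reaches beyond the peak. The motif search was chosen after the data were seen, and a match describes letters, not a bound site.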

How the data were processed

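The data are RNA-seq of whole mouse pituitary in 18 libraries, each a pool of 3 pituitaries, with lists of TRβ binding sites in pituitary and cerebral cortex and of T3-regulated ATAC peaks. Histone ChIP libraries and ChAP libraries of treated mice were not used here. The untreated libraries titled BirA carry the HAB genotype in their labels and were taken as controls by their titles. Members and lists of other genes were chosen with earlier results of these data known. The named genes were *Thrb* and *Thra*, every member called in at least 1 comparison, the 3 members with the highest level in each family, members with a T3-regulated ATAC peak, a fixed set of common chains, and up to 5 called genes per comparison with the most abundant gene from each list; others were named after their values were seen. The rule also limited the peaks described, and those of *Lamc1* were added after the values were seen.

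In the deposited RNA table the authors gave CPM per RefSeq transcript, from reads mapped to mm9, without a filter on low values. Each value was a whole multiple of 1 step per library within a tolerance of 0.05 reads, for 100% of values, and reads were recovered from these steps. Totals ran from 21453548 to 55273749 reads per library, at which 3 reads correspond to 0.0543 to 0.140 CPM; such floors cover counting error only. The table held 29082 transcripts, and 12 members had more than 1. In the deposited peak lists the authors gave the count of reads in each peak for merged libraries of each genotype, from SICER, with no scaling. The fold over control in these lists was scaled by the authors to library size. A p-value in these lists was computed by the authors with SICER, and in the ATAC list an adjusted p-value with edgeR, without the direction of the change; none of them is printed.

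Genes with a mean above 1 CPM, 14158 in all, were fitted as log2(CPM + 1) in 1 linear model of the 4 groups with limma 3.58.1 (trend) in R 4.3.3, and p was adjusted by Benjamini-Hochberg (BH) over all 14158 genes. Comparisons were T3 in wild type, T3 in libraries labelled *Thrb*-KO, their difference (the interaction), and genotypes among hypothyroid and among hyperthyroid libraries. Calls needed at least a 1.5-fold difference with an adjusted p below 0.05. Alternatives were edgeR 4.0.16 and DESeq2 1.42.0 on recovered reads, TMM factors, pseudocounts, filters, call rules, blocks for replicate number and library set, each set alone, second transcripts and each library left out. By edgeR 1708, 234, 761, 682 and 1011 genes were called in the 5 comparisons, in the order given.

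Replicate numbers were checked as pairs: deviations from group means correlated at a median of 0.512 between libraries of the same number, 0.513 between other numbers of the same set and −0.541 between sets. Every correlation of a same number was above 0.1, and values with replicate number as a block are given where they change a call.

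Other genes were read in lists of basement membrane, interstitial matrix, collagen processing, proteases and inhibitors, integrin adaptors and other matrix receptors, and in marker lists of hormone cells, fibroblasts, mural cells, endothelium, immune cells, folliculostellate and stem cells, pituicytes and glia, intermediate lobe, erythrocytes, cartilage and bone, and skeletal muscle. Peaks were placed on mm9 with GENCODE annotation, within 20 kb of the gene body, in Python 3.11.15 with pandas 2.3.3 and numpy 2.4.6. Transcript lengths were not used here: the most abundant gene of a list or family is the one with the highest CPM, which also depends on the length of its transcript, and levels per length are not compared between genes.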

Additional observations from a re-analysis of the deposited data

Results flagged for a closer look

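In 3 of 96 groups of libraries tested, 1 library lay far from the others of its group by Dixon's criterion, and chance alone gives about 1 in 20 groups. *Col5a3* stood at 3.17 CPM in wild type hyperthyroid replicate 4, above the other 3 libraries of its group, which lay between 2.29 and 2.42 CPM. *Itgav* stood at 37.2 CPM in wild type hyperthyroid replicate 3, under the other 3, which lay between 52.4 and 54.8 CPM. This is the library with the lowest correlations to its group. *Col1a2* stood at 115 CPM in *Thrb*-KO hypothyroid replicate 3, above the other 4, which lay between 99.96 and 104 CPM.

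For 9 members the response to T3 differed between the genotypes by the test of the interaction. The response in libraries labelled *Thrb*-KO minus that in wild type was −3.61 for *Col24a1*, −2.83 for *Col4a3*, −2.02 for *Col4a4*, −0.95 for *Col11a1* and −0.80 for *Col27a1* on the log2 scale. It was 0.98 for *Col5a3*, 0.73 for *Itgae*, 0.72 for *Itgav* and 0.68 for *Lama4*. For *Col24a1* alone among them both responses were called with opposite signs. Those of *Col27a1*, *Col5a3* and *Lama4* were lost in 15, 9 and 10 of the 18 fits that left out a library.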

How the results depend on the processing

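Over 32 alternatives, no value of the 31 named members reversed a called direction. Their values lost a call in 126 cases and gained one in 29, and 4800 stayed on the same side of the limits. Over all named genes, those of the receptors and the lists included, calls were lost in 251 cases and gained in 32. With replicate number as a block, calls changed for *Itgb8* and *Itga1* alone. No scaling moved the median of all genes by 0.1 or more on the log2 scale.

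Without a filter on low values 4 members were called for T3 in libraries labelled *Thrb*-KO, where p was adjusted over 21461 genes. Of these genes 0.853% were called, whereas with the filter 7 members and 1.34% of all genes were. Leaving out each library in turn gave 11 (without wild type hyperthyroid replicate 3) to 20 members for T3 in wild type, 3 (without *Thrb*-KO hypothyroid replicate 5) to 7 for T3 in libraries labelled *Thrb*-KO, 6 to 9 for the interaction, 4 to 6 between hypothyroid genotypes and 6 to 7 between hyperthyroid genotypes. Shares of all genes called in these fits are not given, so that the ranges are not read against a background.

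With 1 library set fitted alone, calls were lost or gained. In replicates 1 and 2 those lost for T3 in wild type were *Col4a5* (−0.51) and *Col6a1* (−0.50), for T3 in libraries labelled *Thrb*-KO *Col16a1* (0.58), *Col17a1* (−0.46) and *Itga4* (−0.50), for the interaction *Col5a3* (0.27) and *Lama4* (0.37), and between genotypes *Col5a3* (−0.10) and *Itgam* (−0.32) in hypothyroid and *Col27a1* (0.33) in hyperthyroid libraries. In replicates 3 to 5 those lost were *Col3a1* (−0.59) for T3 in wild type, *Col16a1* (0.66) and *Col6a3* (−0.66) for T3 in libraries labelled *Thrb*-KO, *Itgav* (0.71) and *Col27a1* (−0.47) for the interaction, *Col1a2* (−0.46) between hypothyroid and *Itgal* (−0.46) between hyperthyroid genotypes. Each set holds fewer libraries, and the cause was not tested. Among named members calls were gained in replicates 1 and 2 for *Itgb8*, *Col5a3*, *Col4a3*, *Col4a4* and *Itga6*, and in replicates 3 to 5 for *Itgb8*, *Itga4*, *Itgal*, *Col4a1*, *Lama4* and *Lamc1*.

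Counts of members with a peak followed the distance and the threshold. For pituitary TRβ peaks they were 14 in the gene body alone, 53 within 100 kb and 18 with peaks of at least the median reads, and for cortex TRβ peaks 14, 44 and 12. As shares of members and of all genes with coordinates these are 19.2% against 22.8%, 72.6% against 70.0% and 24.7% against 23.3% for pituitary, and 19.2% against 19.7%, 60.3% against 62.1% and 16.4% against 24.4% for cortex. For ATAC peaks they were 5 in the gene body alone (6.85% against 4.99%), 15 within 100 kb (20.5% against 18.2%) and 3 with an adjusted p-value under 0.001 (4.11% against 3.58%). Levels per transcript length were not run.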
